A study of Homo sapiens with 6 samples.

Results

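Metallothioneins are small, cysteine-rich proteins that bind zinc, copper and cadmium, and their genes lie in a cluster on chromosome 16. This is an account of 10 human genes of that system, taken by symbol from the 60623 genes of the deposited table. They are the metallothionein genes MT1A, MT1E, MT1F, MT1G, MT1H, MT1M, MT1X and MT2A, together with MTF1 and SLC30A1. RNA-seq was done on 6 libraries of cells labelled Huh7, a hepatocellular carcinoma line. The 3 control libraries carry titles beginning NC and the genotype WT. In the other 3, with titles beginning SH, the gene of the SR-family splicing regulator SRSF10 was knocked down, and the series title points to a short hairpin. Treatment is given as NA for both groups. The labels do not say whether the control cells carried a control hairpin, nor whether the knockdown cells were 1 clone. They also do not say that replicates came from separate cultures, so any p-value measures no more than the spread of these libraries, which may be technical.

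In textbook terms, zinc that enters the cytosol through ZIP importers binds MTF1, a zinc finger transcription factor. MTF1 then acts at metal response elements in the promoters of the metallothionein genes and of SLC30A1, the zinc exporter of the plasma membrane. Liver is known for abundant metallothionein, where it is induced by metals, glucocorticoids and inflammation. Values here are FPKM (fragments scaled to gene length and to the depth of the library), which allows levels of different genes to be compared as far as the lengths used are right. Fold changes are differences of log2(FPKM + 1), knockdown minus control, so that changes of low genes are understated.

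RefSeq promoter sequences (GRCh38.p14) were found for 5 of the 10 genes: MT1H, MT1X, MT2A, MTF1 and SLC30A1. The 250 bases before the transcription start are shown for 3 metallothionein genes and the exporter, since these genes share a regulator but differed widely in level. Capitals mark the core of the metal response element, TGCACNC or TGCGCNC, on either strand.
MT2A (chr16:56608334-56608583, plus strand): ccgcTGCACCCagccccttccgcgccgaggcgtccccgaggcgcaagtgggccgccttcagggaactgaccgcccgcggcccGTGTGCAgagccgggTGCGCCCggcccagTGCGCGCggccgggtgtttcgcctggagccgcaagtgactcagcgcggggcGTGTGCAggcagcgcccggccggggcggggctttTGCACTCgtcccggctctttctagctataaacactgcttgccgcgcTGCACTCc
MT1H (chr16:56669564-56669813, plus strand): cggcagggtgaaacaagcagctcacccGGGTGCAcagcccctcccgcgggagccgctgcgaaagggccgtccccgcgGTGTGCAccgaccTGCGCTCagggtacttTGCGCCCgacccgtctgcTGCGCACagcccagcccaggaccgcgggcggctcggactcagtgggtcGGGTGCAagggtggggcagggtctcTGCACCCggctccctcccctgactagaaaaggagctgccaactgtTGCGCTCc
MT1X (chr16:56682220-56682469, plus strand): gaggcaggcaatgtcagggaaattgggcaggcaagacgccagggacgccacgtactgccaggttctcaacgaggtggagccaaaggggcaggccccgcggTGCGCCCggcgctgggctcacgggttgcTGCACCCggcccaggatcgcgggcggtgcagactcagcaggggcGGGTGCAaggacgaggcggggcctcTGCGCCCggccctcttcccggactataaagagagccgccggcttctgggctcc
SLC30A1 (chr1:211579162-211579411, minus strand): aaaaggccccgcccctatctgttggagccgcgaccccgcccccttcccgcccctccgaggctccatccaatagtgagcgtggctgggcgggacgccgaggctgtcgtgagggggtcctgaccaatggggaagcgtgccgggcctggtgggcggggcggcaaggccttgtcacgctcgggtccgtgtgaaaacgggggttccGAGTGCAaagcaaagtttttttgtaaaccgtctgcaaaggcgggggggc

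The core was found 7 times before MT2A, 8 times before MT1H, 4 times before MT1X and once before SLC30A1. Matches did not overlap each other. MTF1 itself had 0 matches in its window. Of 35116 RefSeq promoter windows of the same length, 24.8% held at least 1 core, 0.370% at least 4 and 0.12% at least 5. The core of the antioxidant response element, TGACNNNGC, was also searched on both strands, a choice made after the sequences were seen. It was found once each before MT2A, MT1X and SLC30A1, against 10.9% of all windows with at least 1. In MT2A it began 104 bases before the start, and it overlapped none of the metal response cores. A match describes letters in the window and is not a measured binding site.

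**Figure D1:**
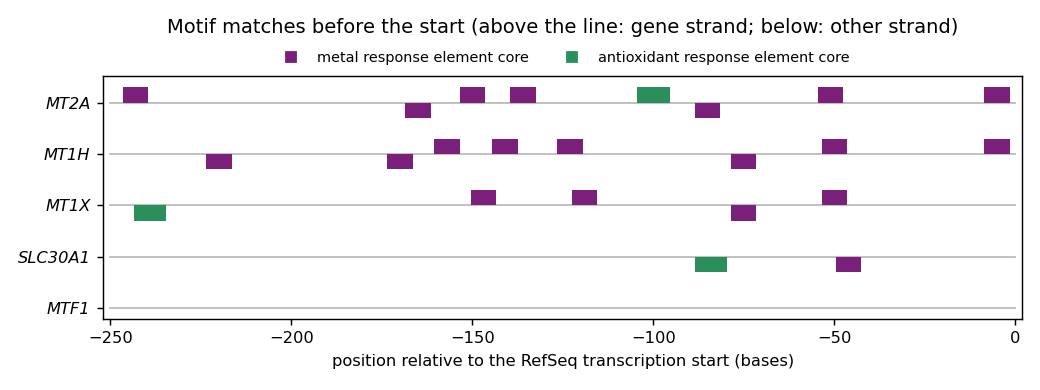
Matches to the metal response element core (purple) and the antioxidant response element core (green) in the 250 bases before the RefSeq start of 5 genes. The horizontal axis is the position in bases relative to the start, boxes above a line are on the strand of the gene and boxes below it on the other. MT2A has 7 metal response cores, MT1H 8, MT1X 4, SLC30A1 1 and MTF1 0.

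The targeted gene, SRSF10, was at 18.6 to 19.8 FPKM across control libraries and 10.6 to 10.8 FPKM across knockdown libraries (adjusted p = 0.000166 by the limma test described with MT2A), so it went with the labels in every library. The estimated depth was 12720000 to 14350000 fragments assigned to genes. Of 11 hepatocyte and Huh7 markers 6 were under 1 FPKM in every library, AFP and ALB among them, with TTR and APOA2 listed at 0, while KRT8, KRT18, HNF4A and FGB were among those expressed. Defining liver transcripts of the labelled line were thus low or at 0 in both groups. ALB was at 0.115 to 0.172 FPKM across control libraries and 0.434 to 0.814 FPKM across knockdown libraries, and SERPINA1 at 0.0753 to 0.144 and 0.539 to 0.674 FPKM.

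MT2A was the only one of the 8 metallothionein genes with a level that could be tested, and it was higher in the knockdown. The other 7 were under 1 FPKM in every library, and 4 of them were listed at 0 in all 6. MTF1 and SLC30A1 were both expressed, and neither passed the test. The test was limma on log2(FPKM + 1) over 12191 genes with at least 1 FPKM in at least 3 libraries, with Benjamini-Hochberg adjustment and a threshold of 0.05. It called 25.2% of those genes, 12.6% as higher and 12.5% as lower. Among the members 3 were tested, 1 was called higher and 0 lower, so the count of members called is too small to be read against that share.

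MT2A (ENSG00000125148, GRCh38 chromosome 16, 56608199 to 56609497, plus strand) encodes metallothionein-2. It was at 1.29, 1.72 and 1.13 FPKM in control replicates 1 to 3 and at 3.13, 2.89 and 4.45 FPKM in knockdown replicates 1 to 3. All knockdown libraries lay above all controls, and knockdown replicate 3 was the highest. For 42.7% of the tested genes the groups did not overlap, counted over both directions together. The mean rose 2.53-fold, from 1.38 ± 0.305 to 3.49 ± 0.842 FPKM (SD, n = 3 libraries each; p = 0.1 by an exact permutation test, two-sided, which cannot go lower with 3 against 3). On the log2(FPKM + 1) scale the fold change was 0.91 (SE 0.15, 95% interval 0.55 to 1.26, limma adjusted p = 0.00659). The gene passed the filter in both groups, since it was above 1 FPKM in every library.

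The MT2A values rest on few fragments. At a length of 916 bases all 6 values came within 0.054 of a whole number of fragments, 17, 20 and 14 in the controls and 40, 36 and 52 in the knockdown. That length was found from these values after they were seen, since no source used here gives the one the authors applied. The summed counts would be 51 in the controls (exact 95% Poisson interval 38.0 to 67.1) and 128 in the knockdown (107 to 152), and these intervals cover counting error only. In order of level, MT2A stood at rank 10335 to 11587 from the highest of 60623 genes in the control libraries and at rank 7167 to 8747 in the knockdown. Of those genes, only 24012 to 24902 were above 0 in a given library.

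The MT1 genes, which encode the metallothionein-1 isoforms, were close to undetected in both groups. MT1E, MT1F, MT1G and MT1H were listed at 0 in every library. A count of 0 over all 6 libraries allows, at 3 fragments, levels of up to 0.0352 FPKM for MT1E, 0.0196 FPKM for MT1F, 0.0494 FPKM for MT1G and 0.0513 FPKM for MT1H, using exon lengths of GENCODE release 29 and counting error only. MT1H was thus undetected with 8 metal response cores before its start, and MT2A was detected with 7.

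MT1A was at 0.176 and 0.397 FPKM in control replicates 1 and 2, which is about 1 and 2 fragments, and at 0 in the other 4 libraries. MT1M was above 0 in knockdown replicate 3 alone, at 0.153 FPKM. MT1X was at 0.0805, 0.0455 and 0 FPKM across control libraries and 0, 0.255 and 0.0453 FPKM across knockdown libraries, and the groups overlapped. With no filter on low values MT1A, MT1M and MT1X could be fitted, and none of them passed (limma adjusted p = 0.356, 0.597 and 0.703), where 6.64% of 32280 genes did.

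**Figure D2:**
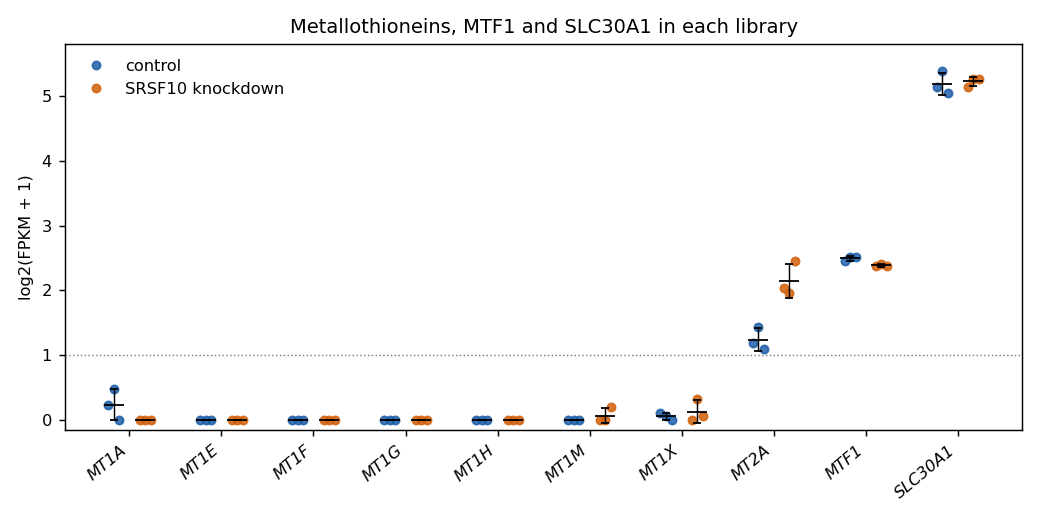
Level of each of the 10 genes as log2(FPKM + 1) in 3 control (blue) and 3 knockdown (orange) libraries. Points are libraries, black marks the mean ± SD of the log2 values, and the dotted line is 1 FPKM. The MT1 genes lie under that line, MT2A is at 1.13 to 1.72 FPKM across control libraries and 2.89 to 4.45 FPKM across knockdown libraries, and the groups overlap for SLC30A1.

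Because the metallothionein genes are close copies of one another, reads could be split between them in counting. Of the 50-base stretches in the GENCODE transcripts of MT2A, 3.02% also occurred in a transcript of another gene. The share was 18.3% for MT1X, 16.5% for MT1G, 15.8% for MT1H, 9.87% for MT1M, 7.10% for MT1E, 5.76% for MT1A and 1.22% for MT1F. SLC30A1 shared 0 such stretches and MTF1 0.891%. These shares pool all annotated transcripts of a gene, 1390 stretches for MT2A with 42 of them shared, and count exact matches only. The share within the transcript that is expressed can therefore be larger. The exons of MT1X also overlap those of AC026461.1. If shared reads were divided among the genes, the summed level of the 8 metallothionein genes depends less on how they were split. Shared reads that were dropped would be missing from the sum as well, and the counting program was not given. The sum was 1.55, 2.16 and 1.13 FPKM across control libraries and 3.13, 3.15 and 4.65 FPKM across knockdown libraries. MT2A made up 79.5% to 100% of that sum.

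The rest of the family was silent or nearly so. Of 12 other metallothionein genes and pseudogenes found in the table, 0 passed the filter and 9 were listed at 0 in every library, among them MT3, MT4 and MT1B. The other 3 were the processed pseudogenes MT1P1, MT1P3 and MT1XP1, named after their values were seen. MT1P1, on chromosome 9, was at 0.38, 0.43 and 0 FPKM across control libraries and 0.39, 0.803 and 0.856 FPKM across knockdown libraries, and the groups overlapped. These MT1P1 values rest on at most about 2 estimated fragments per library. MT1P3 and MT1XP1 were each above 0 in a single knockdown library.

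The 8 metallothionein genes span 76.0 kb of chromosome 16, from 56608199 to 56684196. Genes on either side of the cluster were expressed. BBS2, a subunit of the BBSome of primary cilia and the nearest tested gene of the list on one side, was at 2.90 ± 0.112 FPKM across control libraries and 2.79 ± 0.265 FPKM across knockdown libraries (n = 3 per group). NUP93, a nuclear pore scaffold protein and the nearest on the other side, was at 4.70 ± 0.12 and 4.58 ± 0.0613 FPKM. These were named for their position. Of 12 neighbouring genes 8 were tested, of which 1 was higher and 1 lower, with a median log2 fold change of -0.03 against -0.01 over all tested genes. Over all tested genes 12.6% were higher and 12.5% lower, so these counts are near the share of the whole series. NUDT21, a cleavage factor of mRNA 3' ends, fell from 20.7 ± 0.599 to 17.5 ± 0.144 FPKM (limma adjusted p = 0.00509). CPNE2, a copine, rose from 0.97 ± 0.171 to 1.57 ± 0.0905 FPKM (limma adjusted p = 0.0281), and it passed the filter only through its knockdown values. That call was lost under 6 alternatives, namely with no filter, with the replicate block, without control replicate 2 (adjusted p = 0.0581) and without knockdown replicate 1, 2 or 3 (limma adjusted p = 0.0959, 0.067 and 0.0789). HERPUD1, a protein of endoplasmic reticulum degradation, had a log2 fold change of 0.26 (limma adjusted p = 0.0580), and OGFOD1, a ribosomal prolyl hydroxylase whose exons overlap BBS2, had -0.17 (limma adjusted p = 0.0716). Neither passed, nor did RSPRY1. Of the 4 neighbours under the filter, NLRC5 was named after its values were seen. It was at 0.314, 0.235 and 0.280 FPKM, then 0.773, 0.783 and 0.822 FPKM in the knockdown, so its groups did not overlap. Its values rest on about 37 to 56 and 130 to 134 estimated fragments. GNAO1, SLC12A3 and CETP overlapped between the groups.

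**Figure D3:**
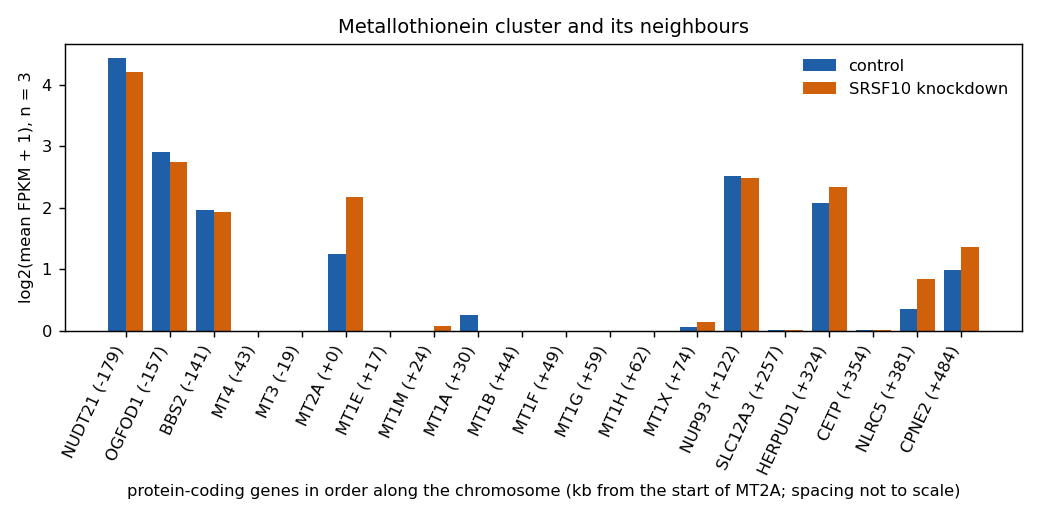
Mean level of listed protein-coding genes around MT2A in order along the chromosome, as log2(mean FPKM + 1) of 3 control (blue) and 3 knockdown (orange) libraries. Numbers in brackets are the distance in kb of each gene's first coordinate from that of MT2A. The metallothionein genes other than MT2A stand at or near 0 between BBS2 and NUP93, which were at 2.90 and 4.70 FPKM in the controls.

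MTF1 (ENSG00000188786, chromosome 1, 37809567 to 37859620, minus strand), the metal sensor, was at 4.46, 4.75 and 4.73 FPKM across control libraries and 4.19, 4.31 and 4.18 FPKM across knockdown libraries. Each knockdown library was below each control, by a small amount. The means were 4.64 ± 0.163 and 4.23 ± 0.0716 FPKM (SD, n = 3 libraries each; p = 0.1 by the exact permutation test). The log2 fold change was -0.11 with a 95% interval of -0.22 to 0.0033, and it did not pass (limma adjusted p = 0.144). Its values rest on an estimated 428 to 514 fragments per library.

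SLC30A1 (ENSG00000170385, chromosome 1, 211571568 to 211578742, minus strand), which moves zinc out of the cytosol, was by far the most abundant of the 10 genes. It was at 34.2, 40.6 and 31.9 FPKM across control libraries and 34.2, 37.4 and 37.5 FPKM across knockdown libraries. The groups overlapped, and the controls spanned the whole range of the knockdown. The means were 35.6 ± 4.49 and 36.3 ± 1.87 FPKM (SD, n = 3 libraries each; p = 0.9 by the exact permutation test). The log2 fold change was 0.04 with a 95% interval of -0.17 to 0.24 (limma adjusted p = 0.80). Without control replicate 3 its sign turned, at -0.04. An estimated 2365 to 2825 fragments per library stood behind it.

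In the controls the order of levels was SLC30A1, MTF1, MT2A and then the MT1 genes, and the ranges of the first 3 did not overlap. An order between genes depends on the gene lengths that the authors divided by, which are not known here. Among knockdown libraries the range of MT2A, 2.89 to 4.45 FPKM, took in that of MTF1, 4.18 to 4.31 FPKM, so these neighbours in the order did not differ beyond their spread. SLC30A1 ranked 845 to 1139 from the highest of all genes.

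The other zinc exporters are the ZnT family, which loads zinc into vesicles, the Golgi and other compartments. Of 9 listed, 4 were tested, with 0 higher and 0 lower and a median log2 fold change of 0.04. Over all tested genes 12.6% were higher and 12.5% lower, and 4 genes are too few to be read against that share. SLC30A5 was at 13.02 ± 0.424 FPKM across control libraries and 13.5 ± 0.505 FPKM across knockdown libraries, and SLC30A6, its Golgi partner, at 11.3 ± 0.857 and 11.7 ± 0.523 FPKM. SLC30A7 was at 6.17 ± 0.288 and 6.31 ± 0.285 FPKM, and SLC30A9 at 11.5 ± 0.317 and 11.4 ± 0.327 FPKM. The 95% intervals of these 4 log2 fold changes lay between -0.12 and 0.19. Of the 5 under the filter, SLC30A2 and SLC30A10 were listed at 0 in every library. SLC30A4, named after its values were seen, was at 0.104, 0.098 and 0.129 FPKM, then 0.249, 0.238 and 0.263 FPKM in the knockdown, so its groups did not overlap. Its values rest on about 10 to 14 and 26 to 28 estimated fragments.

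Among the ZIP importers, which bring zinc into the cytosol from outside or from organelles, 5 of 11 tested genes rose and 0 fell, with a median log2 fold change of 0.11. Over all tested genes 12.6% rose and the median was -0.01. SLC39A8, a carrier of zinc, manganese and cadmium, was at 1.14, 1.13 and 0.98 FPKM across control libraries and 2.34, 2.11 and 1.82 FPKM across knockdown libraries, with no overlap. It rose 1.93-fold, from 1.08 ± 0.0887 to 2.09 ± 0.257 FPKM (n = 3 per group; log2 fold change 0.57, SE 0.091, limma adjusted p = 0.00578). With 1 control under 1 FPKM, it passed the filter only through its knockdown values, so its place in the count of 5 is no support for that count. With no filter it was also called (limma adjusted p = 0.0242). SLC39A14, which carries zinc, iron and manganese and is prominent in liver, was at 13.9, 15.8 and 14.4 FPKM across control libraries and 18.0, 18.9 and 19.1 FPKM across knockdown libraries. It rose 1.27-fold (log2 fold change 0.33, SE 0.054, limma adjusted p = 0.00651).

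SLC39A11 rose from 2.98 ± 0.205 to 4.42 ± 0.441 FPKM (limma adjusted p = 0.00772). SLC39A7, which releases zinc from the endoplasmic reticulum and whose exons overlap those of RXRB, rose from 55.8 ± 0.213 to 63.8 ± 2.9 FPKM (limma adjusted p = 0.0146). Without knockdown replicate 2 or 3 that call was lost (limma adjusted p = 0.0583 and 0.0578). SLC39A6, named after its values were seen, was the weakest of the 5, with a log2 fold change of 0.11 (limma adjusted p = 0.0489). It was lost under 11 of 13 alternatives, among them the removal of any single library (limma adjusted p of 0.0557 to 0.162). Of the ZIP genes that did not pass, SLC39A10 was at 25.9 ± 0.632 FPKM across control libraries and 24.4 ± 1.09 FPKM across knockdown libraries, and SLC39A9 at 12.2 ± 0.42 and 12.7 ± 0.115 FPKM. Without knockdown replicate 2 or 3, 3 of 11 tested ZIP genes were called. With a filter of 5 FPKM only 5 ZIP genes were tested, and 3 were called. Whether the ZIP and ZnT genes differ from each other was not tested.

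**Figure D4:**
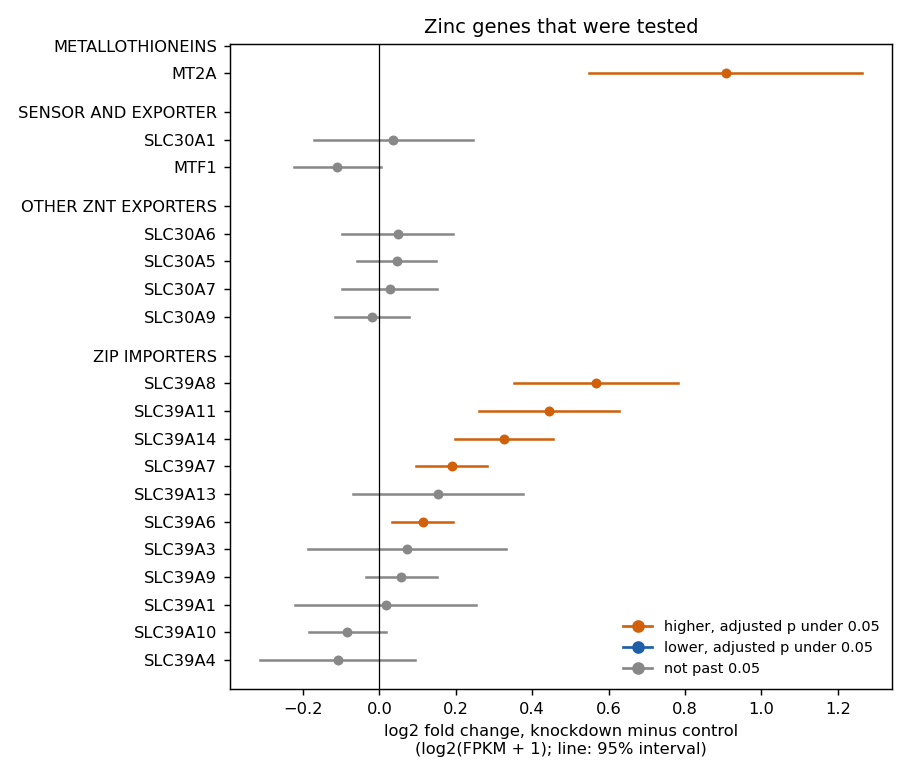
Log2 fold change (knockdown minus control, on log2(FPKM + 1)) of each tested zinc gene, with its 95% interval from limma. Orange genes were higher with an adjusted p under 0.05 and grey ones did not pass. MT2A stands at 0.91, the 5 ZIP genes that rose between 0.11 and 0.57, and MTF1, SLC30A1 and the other tested ZnT exporters have intervals that include 0.

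Of 11 tested genes that handle copper, which metallothioneins also bind, 1 rose and 0 fell, with a median log2 fold change of -0.05. That count is near the 12.6% of all tested genes that rose. SLC31A1, the high-affinity copper importer, rose from 13.9 ± 0.747 to 17.8 ± 1.39 FPKM (n = 3 per group; limma adjusted p = 0.0122). Of those that did not pass, the ferroxidase CP was at 33.3 ± 4.69 and 28.7 ± 2.21 FPKM, COMMD1 at 1.78 ± 0.271 and 2.13 ± 0.299 FPKM, and the copper chaperone COX17 at 10.4 ± 1.36 and 9.13 ± 1.14 FPKM. The copper-zinc superoxide dismutase SOD1 was at 60.9 ± 5.21 and 61.2 ± 2.15 FPKM. MT-CO2, a copper-binding subunit of cytochrome oxidase, had a log2 fold change of -0.05. Of the 3 listed genes under the filter, ATP7B was named after its values were seen. It was at 0.280, 0.236 and 0.282 FPKM, then 0.185, 0.167 and 0.178 FPKM in the knockdown, so its groups did not overlap. Its values rest on about 29 to 39 and 22 to 25 estimated fragments. SLC31A2 and MEMO1 overlapped between the groups.

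Genes that metals and electrophiles are known to induce moved in both directions: 5 of 12 tested genes rose and 1 fell, with a median log2 fold change of 0.08, against 12.6% higher and 12.5% lower over all tested genes. HMOX1, heme oxygenase, which cadmium strongly induces, was at 98.0, 112 and 82.3 FPKM across control libraries and 159, 171 and 167 FPKM across knockdown libraries, with no overlap. It was called higher by limma (log2 fold change 0.77 with SE 0.10, adjusted p = 0.00301). The co-chaperone DNAJB1 rose from 32.6 ± 1.46 to 49.1 ± 2.9 FPKM (n = 3 per group; limma adjusted p = 0.000933), and its exons overlap those of TECR. The heat shock protein gene HSPA1B rose from 20.4 ± 1.84 to 30.7 ± 2.56 FPKM (limma adjusted p = 0.00369). HSPA1A and the co-chaperone BAG3, named after their values were seen, were the other 2 that rose, with log2 fold changes of 0.34 and 0.29. BAG3 did not pass without knockdown replicate 3 (limma adjusted p = 0.0575) or with no filter (0.0514). HSPA1A and HSPA1B are near-identical copies, so how their reads were split is uncertain. They may therefore not be separate calls in the count of 5.

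GCLC, the catalytic subunit of the first enzyme of glutathione synthesis and a target of both MTF1 and NRF2, fell from 32.1 ± 2.49 to 24.2 ± 0.879 FPKM (n = 3 per group; limma adjusted p = 0.0049). The reductases TXNRD1 (732 ± 37.1 and 738 ± 31.2 FPKM) and NQO1 (299.6 ± 32 and 309 ± 6.43 FPKM) did not pass.

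Glucocorticoids are known to induce MT2A. Of 6 tested glucocorticoid-responsive genes 0 rose and 3 fell, with a median log2 fold change of -0.07, where 12.6% of all tested genes rose and 12.5% fell. Of the 4 listed genes under the filter, KLF9 and SGK1, named after their values were seen, were higher in each knockdown library than in any control. KLF9 was at 0.108, 0.0608 and 0.271 FPKM, then 0.483, 0.44 and 0.666 FPKM, and SGK1 at 0.445 to 0.554 and 0.658 to 0.722 FPKM. FKBP5, a co-chaperone of the glucocorticoid receptor and a standard target of it, fell from 13.1 ± 0.861 to 10.1 ± 0.187 FPKM (n = 3 per group; limma adjusted p = 0.00517). ERRFI1, a feedback inhibitor of the EGF receptor, fell from 128 ± 3.98 to 114 ± 2.48 FPKM (limma adjusted p = 0.0151), and the phosphatase DUSP1 from 4.23 ± 0.845 to 2.74 ± 0.43 FPKM (limma adjusted p = 0.0440). The call of DUSP1 was lost without control replicate 2 or 3 (limma adjusted p = 0.11 and 0.102) and without knockdown replicate 1 or 2 (0.116 and 0.125), as well as with no filter (0.138) and no trend (0.0554). That of ERRFI1 was lost without knockdown replicate 1 or 3 (limma adjusted p = 0.0552 and 0.0617) and with the replicate block (0.0518). TSC22D3 missed the threshold with a log2 fold change of 0.21 (limma adjusted p = 0.0532). NR3C1, the receptor itself, was at 8.89 ± 0.709 and 9.08 ± 0.408 FPKM, and CEBPD at 2.94 ± 0.5 and 3.94 ± 0.99 FPKM.

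**Figure D5:**
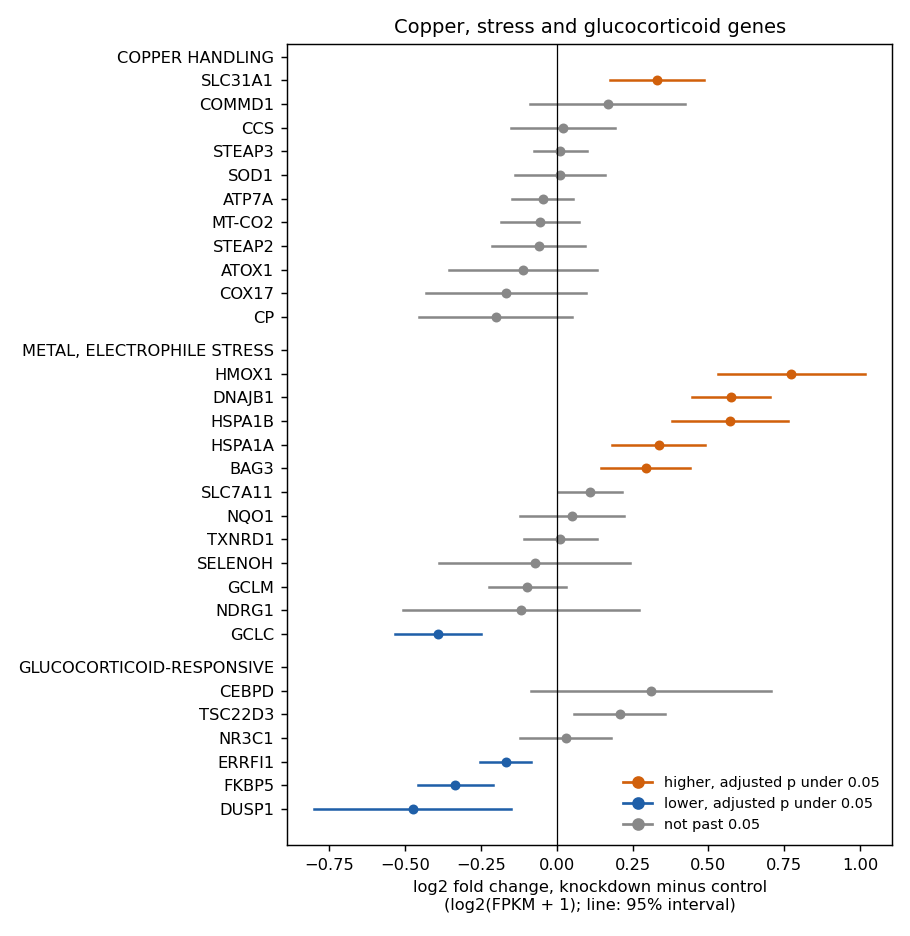
Log2 fold change (knockdown minus control, on log2(FPKM + 1)) of each tested gene for copper handling, metal and electrophile stress, and glucocorticoid response, with its 95% interval from limma. Orange genes were higher and blue genes lower with an adjusted p under 0.05. HMOX1 is at 0.77 and FKBP5 at -0.34.

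The genes most like the summed metallothionein level across the 6 libraries, by Pearson's r of log2(FPKM + 1) over 12188 genes, were GABARAPL2, CERS2, STIM1, SEC22B and PRR5L, with r of 0.992 to 0.997. The most opposite were ZNF181, ZDHHC20 and FPGS, with r of -0.996 to -0.991. In all 465 genes had an r above 0.9. With 6 points in 2 groups, r is a description of these libraries only. GABARAPL2, an ATG8 family protein of autophagy that lies on chromosome 16 far from the cluster, was at 6.35, 6.82 and 6.03 FPKM across control libraries and 7.26, 7.42 and 7.93 FPKM across knockdown libraries.

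Some markers of other cell types were higher in the knockdown along with MT2A. So were the hepatocyte markers ALB and SERPINA1, both under the filter, while 0 of the 5 tested hepatocyte markers were called. The tested markers of other cell types are too few for their calls to be read against the 12.6% of all tested genes called higher. The summed level of 6 fibroblast markers was 4.12 to 5.21 FPKM across control libraries and 9.55 to 10.5 FPKM across knockdown libraries. LUM alone of them was tested and rose, the other 5 were under 1 FPKM in every library, and none was at 0 throughout. LUM made up most of these sums, and PDGFRB was at most 0.022 FPKM in any library. For 4 endothelial markers the sums were 5.43 to 6.13 and 9.46 to 10.8 FPKM, with PECAM1 and KDR higher (KDR passed the filter through its knockdown values alone) and the other 2, CDH5 and VWF, under 1 FPKM. VWF overlapped between the groups. For 5 leukocyte and macrophage markers they were 0.314 to 0.362 and 0.306 to 0.689 FPKM, with overlapping groups, and 0 were tested. In bulk RNA a larger number of cells of a type and more RNA per cell cannot be told apart, and the part of these markers in the MT2A difference was not tested.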

How the data were processed

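The 6 RNA-seq libraries were grouped by their titles. RNA was isolated with TRIzol and sequenced on an Illumina NovaSeq instrument, per the labels' protocols. Per the submitters' processing notes, FastQC 0.11.9, Trim Galore 0.6.5-1 and the build GRCh38 were used. For reads, the aligner, counting program, strand setting and annotation were not given in the sources used here. Each value deposited by the authors is an FPKM, divided by length and depth, so no count model was run. The series table and the file of each library held the same values.

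Genes with at least 1 FPKM in at least 3 libraries were tested with limma 3.58.1 in R 4.3.3 on log2(FPKM + 1), with only the group in the model, a mean-variance trend, and Benjamini-Hochberg adjustment over 12191 genes. The steps were tested on simulated data. Depth was estimated with Python 3.11.15 from low FPKM values and exon lengths of GENCODE release 29: 87.8% to 88.4% of values of up to 6.5 fragments were whole to within 0.05 (10% by chance). The members and lists were chosen with earlier results of these data known. Named are all members, up to 4 genes per list with the smallest adjusted p, up to 2 abundant ones that did not pass, and the genes most like the summed metallothionein level. Of 13 further metallothionein symbols 12 were found in the table. Some genes that this rule names are not reported here.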

Additional observations from a re-analysis of the deposited data

How the results depend on the processing

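MT2A was called higher in all 12 alternative fits that tested it, with log2 fold changes of 0.76 to 1.27 and limma adjusted p of 0.00594 to 0.0299. The largest came with a pseudocount of 0.1, and the lowest without knockdown replicate 3. With a filter of 5 FPKM MT2A and MTF1 were not tested, so 0 members were called. MTF1 stayed lower and not called in its 12 alternatives (-0.13 to -0.10). SLC30A1 was not called in any of its 13, and its log2 fold change turned to -0.036 without control replicate 3, in a range of -0.036 to 0.13 when single libraries were left out. Of the other 52 tested genes of the lists 17 were called, where 25.2% of all tested genes were. In the alternatives 12 to 17 list genes were called, of 36 to 71 tested. Over all genes 3067 of 12191 tested were called, and 1858 to 2679 without single libraries: 1967, 1925 and 1858 without knockdown replicate 1, 2 and 3. With no filter 1013 genes were lower, against 1525. Median-of-ratios scaling and rescaling without mitochondrially encoded genes moved the median of all genes by -0.0033 and -0.00079. The replicate block called 2339 genes, 1 member among them (MT2A, adjusted p = 0.0253). Deviations of same-numbered libraries correlated at 0.0156, 0.057 and -0.0715, so the numbers were not taken to pair the libraries. Depth limits the MT1 genes, at 0 to about 6 estimated fragments per library.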
